A study of Mus musculus with 113 samples.

Results

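The Hox clusters A to D were followed through neural differentiation of mouse embryonic stem cells (mESCs). Members were all genes whose symbol is Hox, a cluster letter from a to d and a paralogue number, which gave 39 of the 23739 genes listed in at least 1 of the gene tables. Cluster A held 11 of them, cluster B 10, cluster C 9 and cluster D 9. The E14 table listed all 39 members among 23107 genes, the SFEB populations had 20 among 13541, the adherent culture 15 among 13738 and the single cells 8 among 11449. A gene that is not in a table has no value there and is not counted as silent.

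The samples came from R1 and E14 mESCs that were induced towards neural progenitors. R1 cells were passaged once without feeders, the fibroblasts on which ES cells are grown, and then differentiated as SFEB (serum-free floating embryoid body-like aggregates) or as an adherent monolayer in N2B27 medium on gelatin, with replating on coated dishes on day 6 in both protocols. The SFEB populations comprised a first series of 14 samples from 0 to 142 h and a parallel series of 8 samples from 0 to 216 h, the single cells were 8 manually picked cells at each of the 8 time points of the parallel series, and the adherent series had 15 samples from 0 to 216 h. The E14 samples were wild-type (WT) cells and cells of 1 *Fyn* knockout clone (*Fyn*-KO, a CRISPR/Cas9 deletion of the start codon of this Src family kinase) at days 0 and 4, with 3 replicates each, and which of the protocols they followed is not given in the sources used here.

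Hox genes encode homeodomain transcription factors that assign positions along the head-to-tail axis. Within a cluster the genes are switched on in order of position, so that low paralogue numbers mark the hindbrain and high numbers mark the spinal cord and tail, while the forebrain and midbrain are free of Hox expression. Retinoic acid, Cdx factors and the removal of Polycomb repression open the clusters, and Hox proteins bind DNA together with the TALE homeodomain cofactors of the Pbx and Meis families. On the mm9 genome with GENCODE M1 gene models, cluster A lies on the minus strand at chr6:52105366-52210874, cluster B on the plus strand at chr11:96055630-96229570, cluster C on the plus strand at chr15:102751534-102867274 and cluster D on the plus strand at chr2:74506367-74603200. The clusters span 106, 174, 116 and 96.8 kb.

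The promoter sequences of 4 members are shown because they span the pattern described below: *Hoxb1*, *Hoxa2* and *Hoxb4* were higher late in differentiation and *Hoxd13* was lower. Each is the 250 bases before the transcription start in RefSeq on GRCm38.p6, written 5′ to 3′ along the gene. They lie at chr11:96365508-96365757 on the plus strand (*Hoxb1*), chr6:52164832-52165081 on the minus strand (*Hoxa2*), chr11:96318017-96318266 on the plus strand (*Hoxb4*) and chr2:74667975-74668224 on the plus strand (*Hoxd13*). Capitals mark matches to TGATNNAT, the type of site that Pbx and Hox proteins bind together, searched on both strands.
Hoxb1: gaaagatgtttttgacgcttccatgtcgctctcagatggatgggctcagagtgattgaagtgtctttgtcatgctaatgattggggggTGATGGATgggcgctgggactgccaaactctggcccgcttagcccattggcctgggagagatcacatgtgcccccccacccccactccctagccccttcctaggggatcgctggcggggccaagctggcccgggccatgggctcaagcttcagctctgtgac
Hoxa2: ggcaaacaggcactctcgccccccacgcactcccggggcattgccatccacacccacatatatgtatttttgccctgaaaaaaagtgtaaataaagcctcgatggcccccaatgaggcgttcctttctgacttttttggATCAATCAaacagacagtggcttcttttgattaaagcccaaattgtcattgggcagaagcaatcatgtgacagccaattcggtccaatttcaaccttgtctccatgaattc
Hoxb4: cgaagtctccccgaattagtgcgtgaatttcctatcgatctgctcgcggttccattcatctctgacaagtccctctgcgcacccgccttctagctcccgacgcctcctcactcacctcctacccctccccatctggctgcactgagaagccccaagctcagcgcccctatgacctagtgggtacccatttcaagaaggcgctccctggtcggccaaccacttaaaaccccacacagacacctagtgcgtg
Hoxd13: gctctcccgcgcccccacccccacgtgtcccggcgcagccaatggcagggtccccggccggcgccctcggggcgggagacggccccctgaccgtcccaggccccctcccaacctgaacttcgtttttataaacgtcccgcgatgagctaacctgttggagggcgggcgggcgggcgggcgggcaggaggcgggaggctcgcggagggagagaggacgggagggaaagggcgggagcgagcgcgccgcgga

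Promoter entries were at hand for 22 members in 24 windows, and 4 windows (16.7%) held a TGATNNAT match, against 7.69% of all 32841 windows of the same length. The *Hoxb1* match lay at bases -162 to -155 from the start and the *Hoxa2* match at -111 to -104. The other matches were at -11 to -4 of *Hoxb8*, a member of the thoracic range, and at -73 to -66 of *Hoxd11*, a posterior member below 1 FPKM in all E14 libraries. A match is a description of the letters, and no match in a window says nothing of the factor. The windows of members held a median of 12.5 CpG dinucleotides (range 2 to 35), against 6 over all windows. CpG counts were 7 for *Hoxb1*, 6 for *Hoxa2* and 14 for *Hoxb4*, and 31 for *Hoxd13*.

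Expression was given as FPKM (fragments scaled to transcript length and sequenced reads), a level that can be set between genes. Read counts were not used here, so no depth per library can be set beside a value, though the study states a minimum number of reads for the single-cell and parallel libraries, and the number of genes above 0 was 13369 to 13538 per SFEB population, 13608 to 13676 per adherent sample, 15125 to 16474 per E14 library and 5648 to 10437 per cell. Each SFEB and adherent time point is 1 library, so neighbouring time points stand in for replicates in the tests of late against early samples. Early samples were taken at up to 22 h and late samples from 100 h on. In both cultures the 6 neural progenitor markers rose and the 5 naive pluripotency markers fell, each gene with an adjusted p below 0.05 in limma. In the E14 libraries *Fyn* was at 2.74 to 4.00 FPKM in WT and 0.598 to 1.10 in *Fyn*-KO at day 0, and at 4.54 to 9.44 and 1.13 to 1.58 at day 4.

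In SFEB populations the anterior members rose and several posterior members fell between the early and the late samples. Of the 20 members tested, 7 rose, 6 fell and 7 did not pass, in limma on log2(FPKM + 1) with Benjamini-Hochberg adjustment over 13224 genes at 0.05. All genes tested gave 31.7% higher and 24.8% lower. The 7 that rose were among the 9 members of paralogue groups 1 to 5, whose median log2 fold change was 1.95, and the 6 that fell were among the 11 members of groups 6 to 13, whose median was -0.67. The median over all genes tested was 0.06. All 20 members passed the filter of 1 FPKM in 3 of the samples fitted, and those that passed it through 1 window alone had to differ between the windows, so these counts describe the members and are no independent evidence. Log2 fold changes of FPKM + 1 understate the change of low genes.

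**Figure D1:**
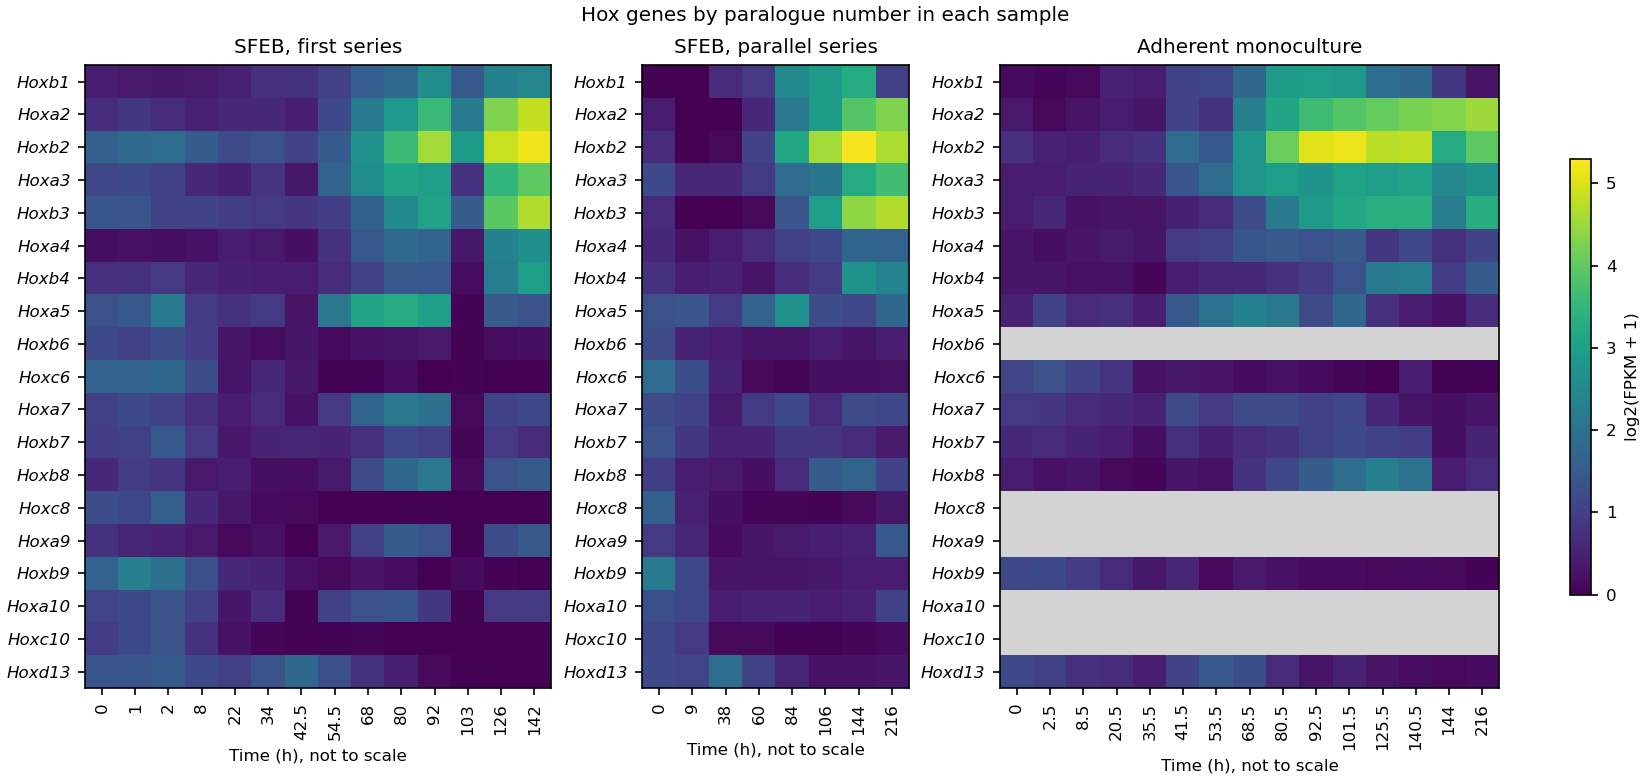
Level of Hox members in every SFEB and adherent sample as log2(FPKM + 1), with genes ordered by paralogue number and samples by time (hours, columns not to scale). Gray rows are genes that the adherent table does not list, and the bright block of *Hoxa2*, *Hoxb2* and *Hoxb3* in late samples lies above the darkening rows of *Hoxc6*, *Hoxb9* and *Hoxc10*.

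Paralogue group 1 patterns the hindbrain around rhombomere 4 and is the earliest to respond to retinoic acid. *Hoxb1* was at 0, 0.292 and 0.404 FPKM (lowest, median and highest) in the 7 early samples and at 0.996, 4.19 and 8.70 in the 6 late samples. No late sample lay in the early range, and the log2 fold change was 1.95 ± 0.32 (SE, adjusted p = 0.00015, limma). In the first series it passed 1 FPKM at 54.5 h and was at 5.08 at 92 h, and in the parallel series it was at 0.552, 0.845, 4.8 and 6.37 FPKM at 38, 60, 84 and 106 h.

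Paralogue group 2 marks the rhombomeres down from the second and includes *Hoxb2*, which had the highest level of any member in the SFEB and adherent populations. *Hoxb2* was at 0, 1.90 and 2.71 FPKM (lowest, median and highest) early and at 6.39, 26.1 and 36.3 late, and the windows did not overlap (log2 fold change 3.39 ± 0.39, adjusted p = 8.22e-06, limma). *Hoxa2*, which also patterns the neural crest of the second arch, was at 0, 0.515 and 0.808 FPKM early and 3.48, 16 and 26.9 late (3.25 ± 0.36, adjusted p = 6e-06). At 216 h *Hoxa2* reached 18.5 FPKM, its highest value of the parallel series, while *Hoxb2* went from 36.3 at 144 h to 24.2. *Hoxb1* fell to 0.996 FPKM from 8.70 over the same interval, which holds the replating on day 6, and each of these time points is 1 library.

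Groups 3 and 4 mark the posterior hindbrain. *Hoxb3* was at 0.00976, 1.12 and 1.67 FPKM (lowest, median and highest) early and at 1.91, 17.2 and 24.9 late, with no overlap (2.77 ± 0.47, adjusted p = 0.000214, limma). *Hoxa3* had medians of 1.07 and 9.37 FPKM (1.96 ± 0.45), *Hoxa4* of 0.182 and 2.24 (1.35 ± 0.30) and *Hoxb4* of 0.630 and 3.98 (1.24 ± 0.39). In these 3 genes the lowest late sample, always the 103 h library, lay within or below the early range. *Hoxb4* lost its call without the 142 h library (log2 fold change 0.94, adjusted p = 0.0594, limma).

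**Figure D2:**
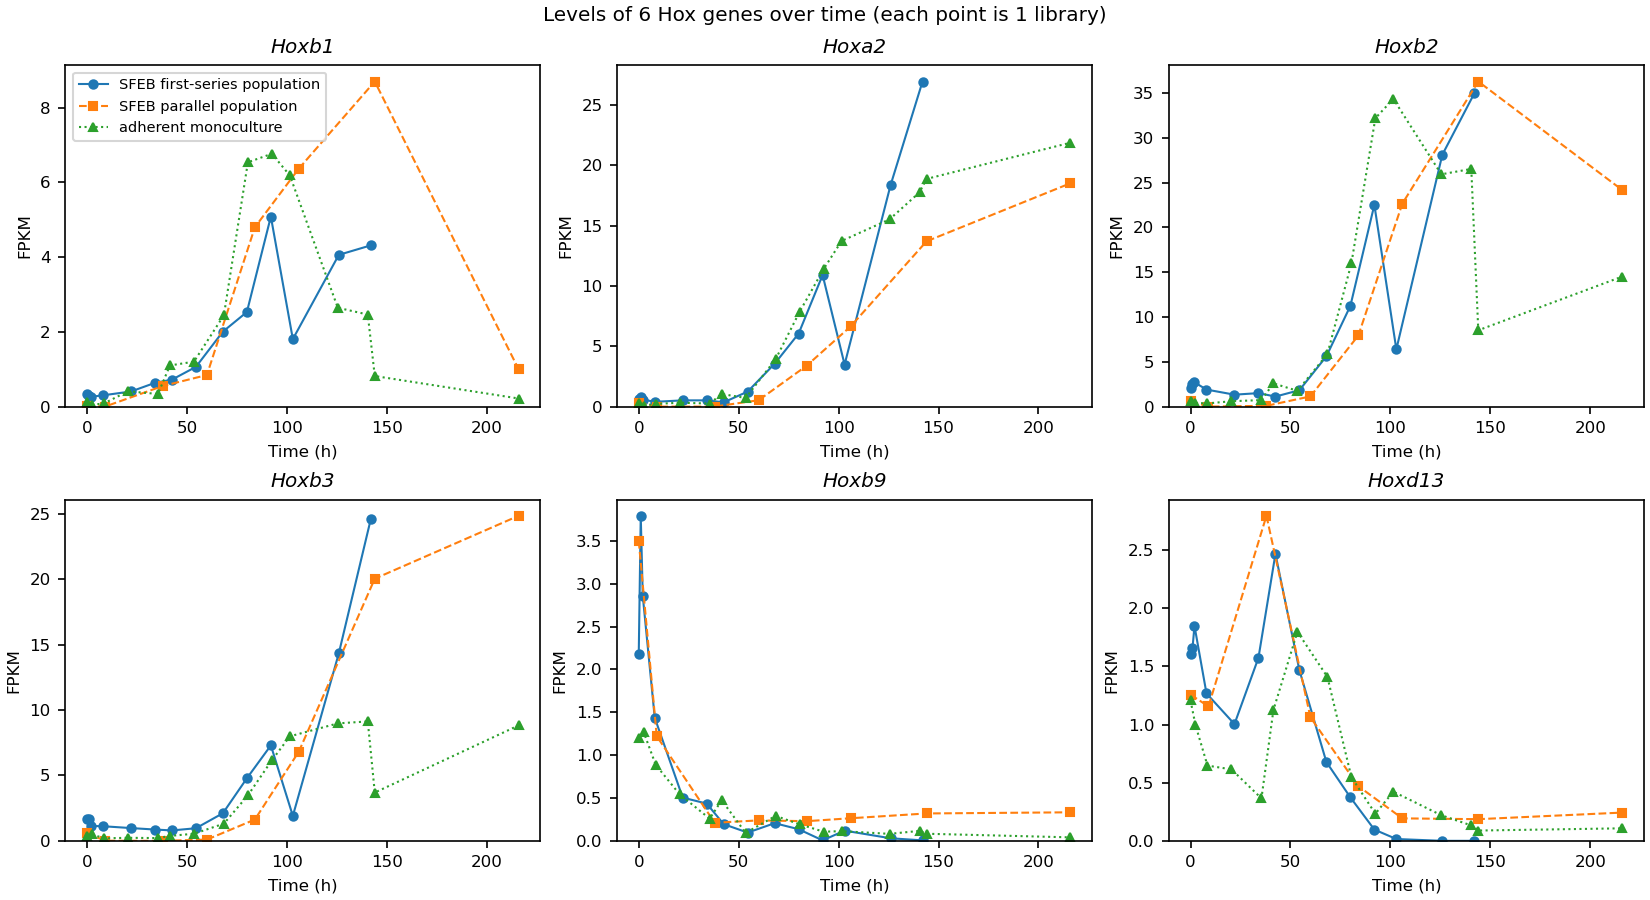
FPKM of 6 Hox members against time in hours for the first SFEB series, the parallel SFEB series and the adherent series, each point 1 library. *Hoxa2* and *Hoxb2* stay high late, *Hoxb9* is highest in the first hours, and *Hoxd13* has its highest value at 38 to 53.5 h.

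The members of groups 5 to 10 of clusters A and B, which mark the spinal cord from brachial to lumbar levels, differed in their courses. *Hoxa5* reached 8.69 FPKM at 80 h and 5.41 at 84 h in the 2 series, and its early and late medians were 1.50 and 1.47 FPKM. In the first series *Hoxa7* reached 3.32 FPKM at 80 h, *Hoxa9* 1.92 at 80 h, *Hoxb8* 3.33 at 92 h and *Hoxa10* 1.68 at 80 h. In the parallel series *Hoxa9*, *Hoxb8* and *Hoxa10* were at 0.304, 0.558 and 0.424 FPKM at 84 h and had later maxima of 1.75, 2.23 and 1.10 FPKM among the samples from 38 h on, and *Hoxa7* was at 1.3 at 84 h and 1.34 at 144 h. In that series *Hoxa7*, *Hoxa10*, *Hoxb6*, *Hoxb7* and *Hoxb9* were highest at 0 h, at 1.36, 1.45, 1.33, 1.54 and 3.5 FPKM. *Hoxa5*, *Hoxa7*, *Hoxa9*, *Hoxa10*, *Hoxb7* and *Hoxb8* did not pass the test, with log2 fold changes from -0.46 (*Hoxa10*) to 0.51 (*Hoxb8*). Calls were gained by *Hoxb8* without the 103 h library (0.77, adjusted p = 0.00246, limma) and, without the 22 h library, by *Hoxa10* (-0.56, adjusted p = 0.0168) and *Hoxb7* (-0.51, adjusted p = 0.0262). *Hoxa10* was also called without the 216 h library (-0.52, adjusted p = 0.0421, limma). With late samples from 120 h *Hoxa9* was called higher (0.63, adjusted p = 0.0262) and so was *Hoxb8* (0.75, adjusted p = 0.00353), as both were by a slope over time (adjusted p = 0.0229 and 0.0228, limma). *Hoxb8* was also called after quantile normalization (adjusted p = 0.0349) and without the series term (adjusted p = 0.0403).

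The 3 members of cluster C and, from cluster B, *Hoxb6* and *Hoxb9* were highest at 0 to 2 h and fell. *Hoxb9*, a marker of the thoracic spinal cord, was at 0.504, 2.18 and 3.79 FPKM (lowest, median and highest) early and at 0.00534, 0.191 and 0.333 late (log2 fold change -1.4 ± 0.25, adjusted p = 0.000314, limma). *Hoxc6*, a brachial marker, was at 0.225, 2.20 and 2.61 FPKM early and at 0.00394, 0.0942 and 0.173 late (-1.33 ± 0.22, adjusted p = 0.000192). Early medians of *Hoxc8*, *Hoxc10* and *Hoxb6* were 1.21, 0.892 and 1.07 FPKM, and late medians 0.0149, 0.0148 and 0.214, with log2 fold changes of -0.95 ± 0.22, -0.91 ± 0.17 and -0.67 ± 0.18. *Hoxc8*, *Hoxc10*, *Hoxc6* and *Hoxb9* had no overlap between the windows, and *Hoxb6* overlapped. Some of the lowest levels are not separate measurements, since the first series repeats 1 value above 0 in 5 samples for *Hoxc10* (0.00466 FPKM), in 3 for *Hoxc6* and in 2 for *Hoxb9*.

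*Hoxd13*, the one cluster D member listed in the SFEB and adherent tables and a gene of the tail and genital region, took another course. It was at 1.00, 1.27 and 1.85 FPKM (lowest, median and highest) early and at 0, 0.101 and 0.243 late, a fall of -1.13 ± 0.13 on the log2 scale (adjusted p = 9.02e-06, limma). Before it fell it reached 2.47 FPKM at 42.5 h in the first series and 2.80 at 38 h in the parallel series. At those times the highest of the other 10 members of groups 6 to 13 was *Hoxb7* at 0.455 FPKM in the first series and *Hoxc6* at 0.442 in the parallel series.

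Fibroblast RNA moved with the early levels of the posterior members. The 12 fibroblast markers summed to 991 to 1274 FPKM at 0 to 2 h, 430 at 8 and at 9 h, 132 at 22 h and 30.6 to 146 in the late samples, and 11 of the 12 fell. *Hoxb9* and *Hoxc6* were at 1.44 and 1.38 FPKM at 8 h and at 0.504 and 0.225 at 22 h, so the sum and these genes dropped over the same hours. *Hoxd13*, at its maximum at 38 and 42.5 h when the fibroblast sum was 94.0 and 55.6 FPKM, did not follow that sum. In bulk samples fewer cells of a type and less RNA per cell cannot be told apart, and the part of feeder RNA in these falls was not tested. Without the 0 h samples 16 members were tested and 3 fell, near the 22.3% of all genes that fell in that fit. The 3 were *Hoxd13*, *Hoxc6* and *Hoxb9*, while *Hoxc10*, *Hoxc8* and *Hoxb6* were below the filter.

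Within the series the 2 sets of libraries gave like directions for the anterior genes. In the first series alone 14 members were tested, of which 5 rose and 5 fell, where 27% of all genes rose and 22.9% fell. In the parallel series alone 9 were tested, of which 3 rose and 0 fell, where 4.2% of all genes rose and 3.03% fell. *Hoxa2*, *Hoxb2* and *Hoxb3* rose in each series alone, with log2 fold changes of 3.09, 2.69 and 2.19 in the first and 3.5, 4.47 and 3.68 in the parallel series. *Hoxa3* kept its direction in the parallel series alone (2.12, adjusted p = 0.0542, limma), as did *Hoxa4* (1.08, adjusted p = 0.0837).

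The 103 h library of the first series stood apart. The 9 members of groups 1 to 5 summed to 74.0 FPKM at 92 h, 16.8 at 103 h and 85.6 at 126 h, and the 11 members of groups 6 to 13 to 10.0, 0.487 and 5.84. *Hoxa5* was at 6.97, 0.0427 and 1.79 FPKM at these times and *Hoxa3* at 6.89, 0.682 and 10.2. *T* (brachyury), a gene of early mesoderm and the posterior growth zone, moved the other way, at 4.02, 11.4 and 4.19 FPKM. The fibroblast sum was 109, 124 and 61.4 FPKM at these times, and the part of these genes in the drop was not tested. In the parallel series groups 1 to 5 summed to 45.4 FPKM at 84 h and 52.7 at 106 h, and *Hoxa3* was at 2.64 and 3.17. *Hoxa5* went from 5.41 to 1.4 FPKM between these times, so it fell in that series too. Its level of 0.0427 FPKM at 103 h was nevertheless its lowest in any SFEB population. The SFEB changes of *Hoxa2*, *Hoxb2*, *Hoxb3*, *Hoxb1*, *Hoxa3*, *Hoxa4* and *Hoxb4* stayed past the threshold without the 103 h library.

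**Figure D3:**
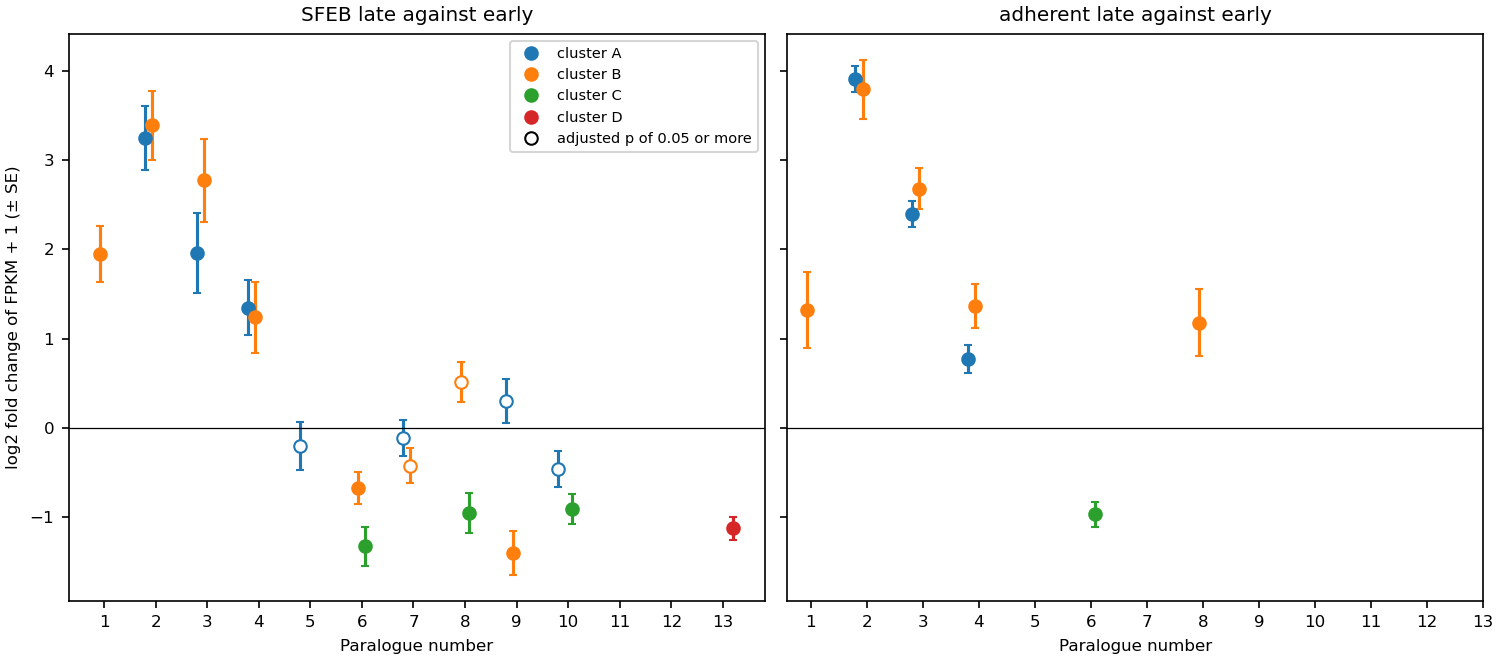
Log2 fold change of FPKM + 1 between late and early samples (± SE, limma) against paralogue number, for SFEB populations (left) and adherent monoculture (right), coloured by cluster. Filled points have an adjusted p below 0.05, and in SFEB culture the members of groups 2 to 4 lie above 0, while those of group 6 and above reach at most 0.51.

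Over the 20 SFEB members the log2 fold change went down with paralogue number (Pearson r = -0.751, Spearman rho = -0.732), and over the 10 adherent members tested it was weaker (r = -0.412, rho = -0.325). These are across genes that share the same libraries and are given as a description. At equal paralogue number the clusters stayed close in groups 2 and 4, where *Hoxa2* and *Hoxb2* were at 3.25 and 3.39 and *Hoxa4* and *Hoxb4* at 1.35 and 1.24. They were farther apart in group 9, at 0.30 for *Hoxa9* and -1.4 for *Hoxb9*, in group 8, at 0.51 for *Hoxb8* and -0.95 for *Hoxc8*, in group 3, at 1.96 for *Hoxa3* and 2.77 for *Hoxb3*, and in group 6, at -0.67 for *Hoxb6* and -1.33 for *Hoxc6*. These gaps were not tested.

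In adherent culture the members that rose were again mostly anterior. Of its 15 members 10 passed the filter in the 4 early and 5 late samples, and 8 of these rose, 1 fell and 1 did not pass in limma over 12676 genes. All genes tested gave 34.8% higher and 24.4% lower, with a median log2 fold change of 0.10. The 8 that rose were below 1 FPKM in all 4 early libraries, so they passed the filter through the late samples alone and had to be higher there, and the count is no independent evidence of a rise. The median of the 8 members of groups 1 to 5 was 1.88. *Hoxa5*, *Hoxa7*, *Hoxb7*, *Hoxb9* and *Hoxd13* were below the filter.

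*Hoxa2* was at 0.286, 0.0851, 0.221 and 0.319 FPKM at 0, 2.5, 8.5 and 20.5 h of adherent culture and at 13.7, 15.5, 17.8, 18.9 and 21.9 at 101.5, 125.5, 140.5, 144 and 216 h. It kept rising to the last sample, and its windows were far apart (log2 fold change 3.90 ± 0.15, adjusted p = 3.28e-08, limma). *Hoxb2* was at 0.664, 0.408, 0.354 and 0.598 FPKM in the early samples and at 34.4, 25.9, 26.5, 8.52 and 14.5 in the late samples. It also stood apart from the early window (3.79 ± 0.33, adjusted p = 6.32e-06, limma) but was highest at 101.5 h and lowest at 144 h among the late samples. *Hoxb3* (2.68 ± 0.23), *Hoxa3* (2.40 ± 0.15), *Hoxb4* (1.37 ± 0.25) and *Hoxa4* (0.77 ± 0.16) rose with no overlap.

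*Hoxb1* was at 0.118, 0.0490, 0.0842 and 0.410 FPKM early in adherent culture and at 6.19, 2.65, 2.46, 0.818 and 0.216 late. Its last value lay in the early range, its maximum of 6.77 FPKM came at 92.5 h, and the rise (1.32 ± 0.43, adjusted p = 0.0213, limma) lost its call without the 2.5 h library (adjusted p = 0.0543) or the 8.5 h library (adjusted p = 0.0516) and by a slope over time (adjusted p = 0.232). *Hoxb8* rose (1.18 ± 0.37, adjusted p = 0.0192) to a maximum of 3.90 FPKM at 125.5 h, and its windows overlapped at 0.315 to 0.323 FPKM. Its call was lost after quantile normalization (0.95, adjusted p = 0.0509, limma). *Hoxc6* was at 1.15, 1.50, 1.13 and 0.751 FPKM early and at 0.05, 0, 0.317, 0.0263 and 0.0314 late, a fall of -0.97 ± 0.14 (adjusted p = 0.000189). *Hoxc6* passed the filter through 3 early libraries, so that leaving out the 0, 2.5 or 8.5 h library removed it from the test. Leaving out the 101.5 h or the 140.5 h library left 5 members that rose, among 7 tested.

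Of the members below the filter in adherent culture, *Hoxb9* was at 1.21, 1.27, 0.886 and 0.542 FPKM early and at 0.0405 to 0.116 late. *Hoxd13* had values of 0.615 to 1.21 FPKM early, a maximum of 1.80 at 53.5 h and 0.0885 to 0.423 late, so it rose above its early range midway as in the SFEB series. *Hoxa5* and *Hoxa7* were highest midway, at 4.04 FPKM at 68.5 h and 1.34 at 41.5 h, and *Hoxb7* at 101.5 h with 1.25. The 12 fibroblast markers summed to 862, 738, 477 and 177 FPKM in the 4 early samples, and 9 of the 11 tested fell.

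Of the 10 members tested in both cultures, 7 rose in both and 1 (*Hoxc6*) fell in both. These 8 passed the adherent filter through 1 window alone, which fixed their direction there, so the match between the cultures is no independent support. The levels set side by side come from tables that were normalized separately. *Hoxb3* was at 20 and 24.9 FPKM in the SFEB samples of 144 and 216 h and at 3.69 and 8.83 in the adherent samples of these times. *Hoxb4* was at 5.60 and 4.20 FPKM in SFEB and at 0.925 and 1.92 in adherent culture.

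The adherent 144 h library, taken on the day of replating, stood apart from its neighbours. *Hoxb2* was at 26.5, 8.52 and 14.5 FPKM at 140.5, 144 and 216 h, *Hoxb8* at 3, 0.315 and 0.566 and *Hoxb4* at 3.75, 0.925 and 1.92. *Hoxa2*, at 17.8, 18.9 and 21.9 FPKM, did not share the drop. The fibroblast markers summed to 422 FPKM at 144 h, against 91.0 at 140.5 h and 66.5 at 216 h, with *Acta2* at 203 and *Tagln* at 175, and *T* was at 22.7. Their part in the drop was not tested, and every member called higher remained higher without the 144 h library.

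Onset was read as the first time from which a member stayed at 1 FPKM or more to the last sample. In the parallel SFEB series *Hoxb2* and *Hoxa5* did so from 60 h, *Hoxa2*, *Hoxa3*, *Hoxa4* and *Hoxb3* from 84 h, *Hoxb8* from 106 h, *Hoxa7* and *Hoxb4* from 144 h and *Hoxa9* and *Hoxa10* at 216 h. *Hoxa3*, *Hoxa5*, *Hoxa7* and *Hoxa10* were above 1 FPKM at 0 h there (1.26, 1.49, 1.36 and 1.45), so their times mark a return. At 1 FPKM the order departed from paralogue number with *Hoxa5* ahead of *Hoxa2* and *Hoxb8* ahead of *Hoxb4*. At 0.5 FPKM it was 0 h for *Hoxa5*, 38 h for *Hoxa3*, 60 h for *Hoxa2*, *Hoxa4* and *Hoxa7* and 84 h for *Hoxb4* and *Hoxb8*. At 2 FPKM these departures were absent, with *Hoxa2* at 84 h, *Hoxb4* at 144 h, *Hoxa5* at 216 h and no onset for *Hoxb8*. In the adherent series the times were 41.5 h for *Hoxb2* and *Hoxa3*, 68.5 h for *Hoxa2* and *Hoxb3* and 216 h for *Hoxa4* and *Hoxb4*. In the first series *Hoxb2* was above 1 FPKM from 0 h on, *Hoxa2* and *Hoxb1* from 54.5 h and *Hoxb3* from 68 h, and 7 further members stayed above it only from 126 h because the 103 h library lay below. These counts of 11, 11 and 6 members are a description with no test.

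*Hoxb7* and *Hoxb8* share 1069 exonic bases in the GENCODE M1 models, which is 26.2% and 40.4% of their lengths, and *Hoxa2* and *Hoxa3* share 267 bases. Reads in these stretches cannot be assigned to 1 gene, so levels of *Hoxb7* and *Hoxb8* are uncertain. *Hoxd3* and *Hoxd4* share 1725 bases, 29.8% and 67.4% of their lengths. Apart from these pairs, no member shared a stretch of 100 bases, the read length, with another member.

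In single cells *Hoxb1* was detected in the largest number of cells at 106 h and *Hoxb2* and *Hoxa2* at 144 h. The authors' values are log10(RPKM + 1) after quantile normalization, RPKM being reads scaled to the same measures, and a gene was taken as detected above 0.5 RPKM. The study's methods describe a filter at that level in a minimum number of cells which *Hoxa4* and *Hoxb13* do not reach in these values, so the threshold may not be on the scale of that filter. Of the 8 members listed, detection over all 64 cells was 26 for *Hoxb1*, 19 for *Hoxb2*, 13 for *Hoxa2*, 10 for *Hoxb3*, 8 for *Hoxa3*, 5 for *Hoxa4* and 2 for *Hoxb13*. The 8 cells of a time point are 1 sample, so no test was made and intervals (exact Clopper-Pearson, 95%) cover counting error only. The median number of genes above 0 per cell was 8972 at 0 h, 6927 at 9 h, 7270 at 106 h, 6145 at 144 h and 7951.5 at 216 h. Its part in the detections was not tested. The paper describes cell 16 of 216 h as an outlier left at the starting stage. That cell is counted in every 216 h share, with 0 members above 0.5 RPKM.

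**Figure D4:**
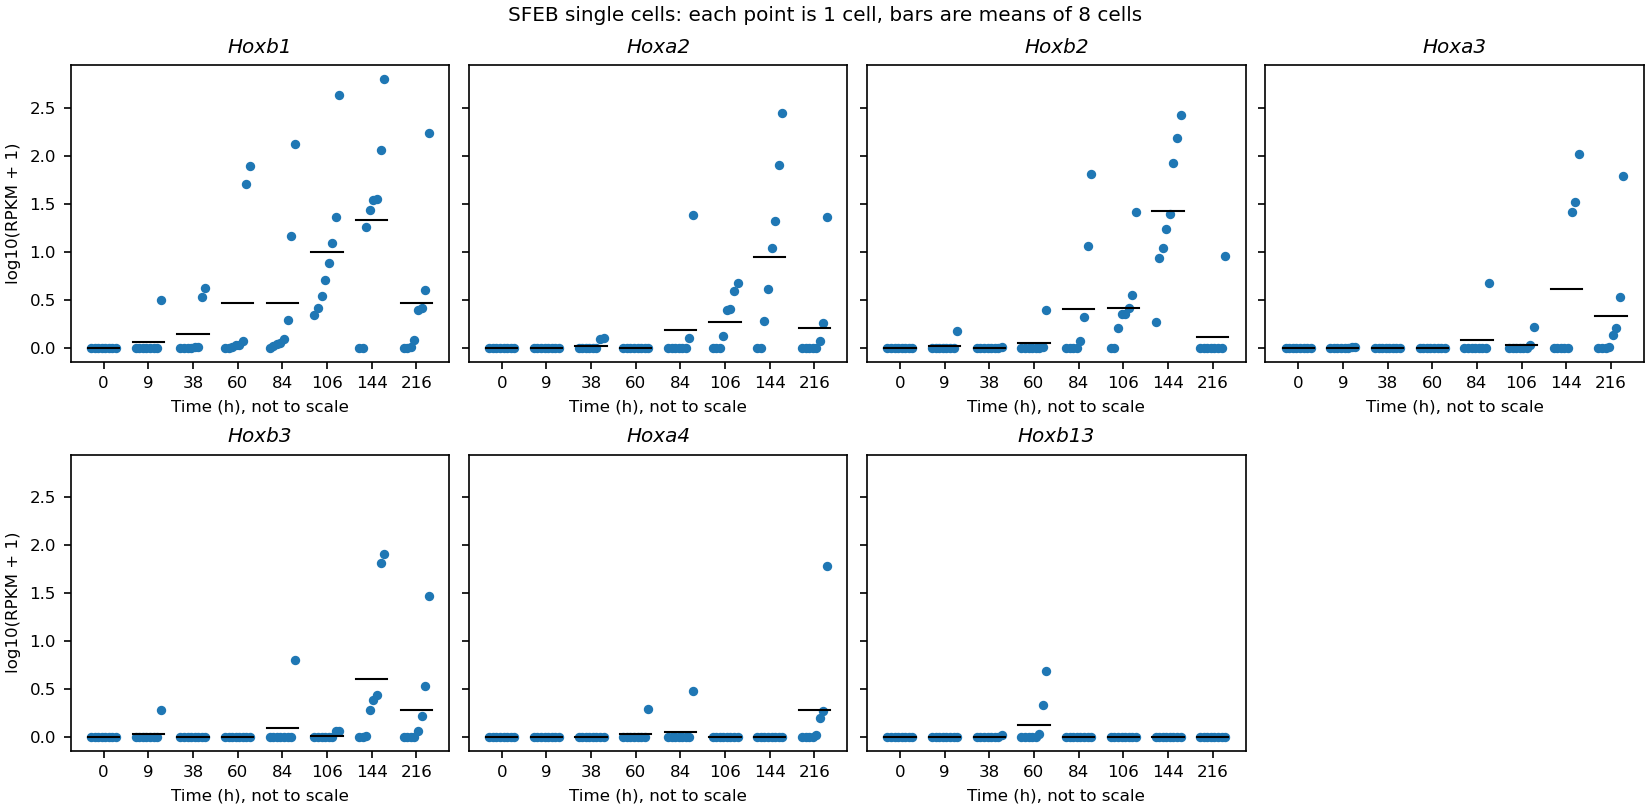
Level of 7 Hox members of the single-cell table in each of 64 SFEB cells as log10(RPKM + 1), by time in hours (not to scale), each point 1 cell and each bar the mean of 8 cells. *Hoxb1* is above 0 in 8 of 8 cells at 106 h, and *Hoxb2* in 8 of 8 cells at 144 h.

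*Hoxb1* was detected in 8 of 8 cells at 106 h (interval 63.1 to 100%), with a lowest cell of 1.24, a median of 5.38 and a highest of 435 RPKM. Its mean of 108 RPKM at 144 h rested on a spread from 0 to 637, and 6 of 8 cells passed 0.5.

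*Hoxb2* was detected in 3 of 8 cells at 84 h, 6 at 106 h, 8 at 144 h (lowest 0.854, median 20.1 and highest 266 RPKM) and 1 at 216 h (12.5%, interval 0.316 to 52.7%). The matched populations were at 7.94, 22.7, 36.3 and 24.2 FPKM, so the share of cells was lowest at 216 h, where the population was at its second highest of these 4 values. *Hoxa2* was detected in 1, 4, 6 and 2 of 8 cells at these 4 times, with means of 2.94, 1.27, 49.6 and 2.90 RPKM, and its population was at 3.38, 6.64, 13.7 and 18.5 FPKM. For *Hoxb3* the cells above 0.5 were 1, 0, 5 and 3.

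The members came together in cells. At least 1 of the 8 was detected in 1, 1, 2, 5, 5, 8, 8 and 6 of 8 cells at 0, 9, 38, 60, 84, 106, 144 and 216 h, and 3 or more in 0, 0, 0, 1, 3, 5, 6 and 3. Among the 32 cells of 84 h and later, *Hoxb1* was detected in 21, *Hoxb2* in 18 and both in 16. All 13 cells with *Hoxa2* also had *Hoxb1*, and 11 of them had *Hoxb2*. Detection in single cells depends on the reads of each cell, which were not used here, and these counts are a description.

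*Hoxa3* and *Hoxa4* were carried by few cells. At 144 h *Hoxa3* was detected in 3 of 8 cells with a highest of 104 RPKM, and at 216 h in 3 of 8 with a highest of 60.2. *Hoxa4* was detected in 3 of 8 cells at 216 h with a mean of 7.65 RPKM and a highest of 59.7, and in 0 of 8 at 106 and 144 h, which allows a share of up to 37.5% of cells with a value at each time (3 counts of 8, counting error only), when its population was at 1.21 and 2.30 FPKM. *Hoxb13*, the most posterior member of cluster B, was detected in 2 cells at 60 h and in no other cell of the 64.

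In E14 cells the pattern at day 0 was posterior. Of the 39 members 7 passed the filter of 1 FPKM in 3 of 12 libraries, and 21 reached 1 FPKM in no library. *Hoxb5* was listed at 0 in all 12. Members above 0 numbered 28, 36 and 34 in the WT day 0 libraries, 18, 20 and 25 at WT day 4, 23, 28 and 26 at *Fyn*-KO day 0 and 12, 7 and 13 at *Fyn*-KO day 4. At *Fyn*-KO day 4 22 members were listed at 0 in all 3 libraries, against 2 at WT day 0, 9 at *Fyn*-KO day 0 and 11 at WT day 4.

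Between days 0 and 4 of WT, 5 of the 7 members tested fell and 0 rose, with all 7 log2 fold changes below 0, in limma over 12257 genes, where 10.3% of all genes fell and 15.5% rose. 6 of the 7 were at 1 FPKM or more in all WT day 0 libraries. Members that passed the filter through day 0 alone had to be lower at day 4, and the count is given with that limit. The 3 samples of a group are not stated to be separate cultures, so p-values measure the spread between these samples, which may be technical.

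*Hoxc13*, of the tail end of cluster C, was at 2.99, 5.68 and 2.77 FPKM at WT day 0 and at 0.107, 0.474 and 0.352 at WT day 4. The groups did not overlap (3.81 ± 1.62 against 0.311 ± 0.187 FPKM, mean ± SD, n = 3) and the log2 fold change was -1.84 ± 0.30 (adjusted p = 0.00173, limma). *Hoxb9* was at 2.60, 3.78 and 5.89 FPKM and then at 0.0191, 1.12 and 0.137 (-1.86 ± 0.37, adjusted p = 0.00495), again with no overlap. *Hoxc10* was at 1.15, 3.11 and 1.47 FPKM and then at 0, 0.0271 and 0.0291 (-1.46 ± 0.32, adjusted p = 0.0078). *Hoxc12* was at 1.99, 5.63 and 2.60 FPKM at day 0 and was listed at 0 in the 3 libraries of day 4 (adjusted p = 0.00482, with no fold given against 0). *Hoxc4* was at 1.10, 2.12 and 1.62 FPKM and then at 0.109, 0.624 and 0.0837 (-1.05 ± 0.28, adjusted p = 0.019), but its adjusted p was 0.0585 to 0.0809 without any one of WT day 0 replicates 2 and 3 and WT day 4 replicates 1 and 3.

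*Hoxb13* was at 0.713, 2.00 and 1.99 FPKM at WT day 0 and at 0.136, 0.468 and 0.0926 at WT day 4, with no overlap but an adjusted p of 0.0614 in limma. It was called in 3 fits that left out a library, of *Fyn*-KO day 0 replicate 2 (adjusted p = 0.039) or 3 (0.0236) or of WT day 0 replicate 1 (0.0365), and after quantile normalization (log2 fold change -1.19, adjusted p = 0.0348, limma). Cluster D was low throughout, with highest values of 1.4 FPKM for *Hoxd9* and 1.20 for *Hoxd13*, both in WT day 0 replicate 3. *Hoxc11*, below the filter, was at 0.587, 4.85 and 0.983 FPKM at WT day 0 and was listed at 0 in the WT day 4 libraries.

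The E14 libraries differed from the R1 samples in the values that moved with the posterior genes. The fibroblast sum was 0.779 to 1.51 FPKM at WT day 0, where *Hoxc13*, *Hoxc12* and *Hoxb9* were highest, so these markers were near 0 in the libraries with the posterior signal. *Cdx1*, a caudal factor that activates Hox genes in the posterior embryo, was at 34.3, 39.5 and 17.2 FPKM at WT day 0 and at 0.0601 to 0.194 at WT day 4 (log2 fold change -4.75, adjusted p = 0.00875, limma). In the early SFEB samples *Cdx1* was at 0.306 to 1.06 FPKM. The part of *Cdx1* in the level of the posterior members was not tested.

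**Figure D5:**
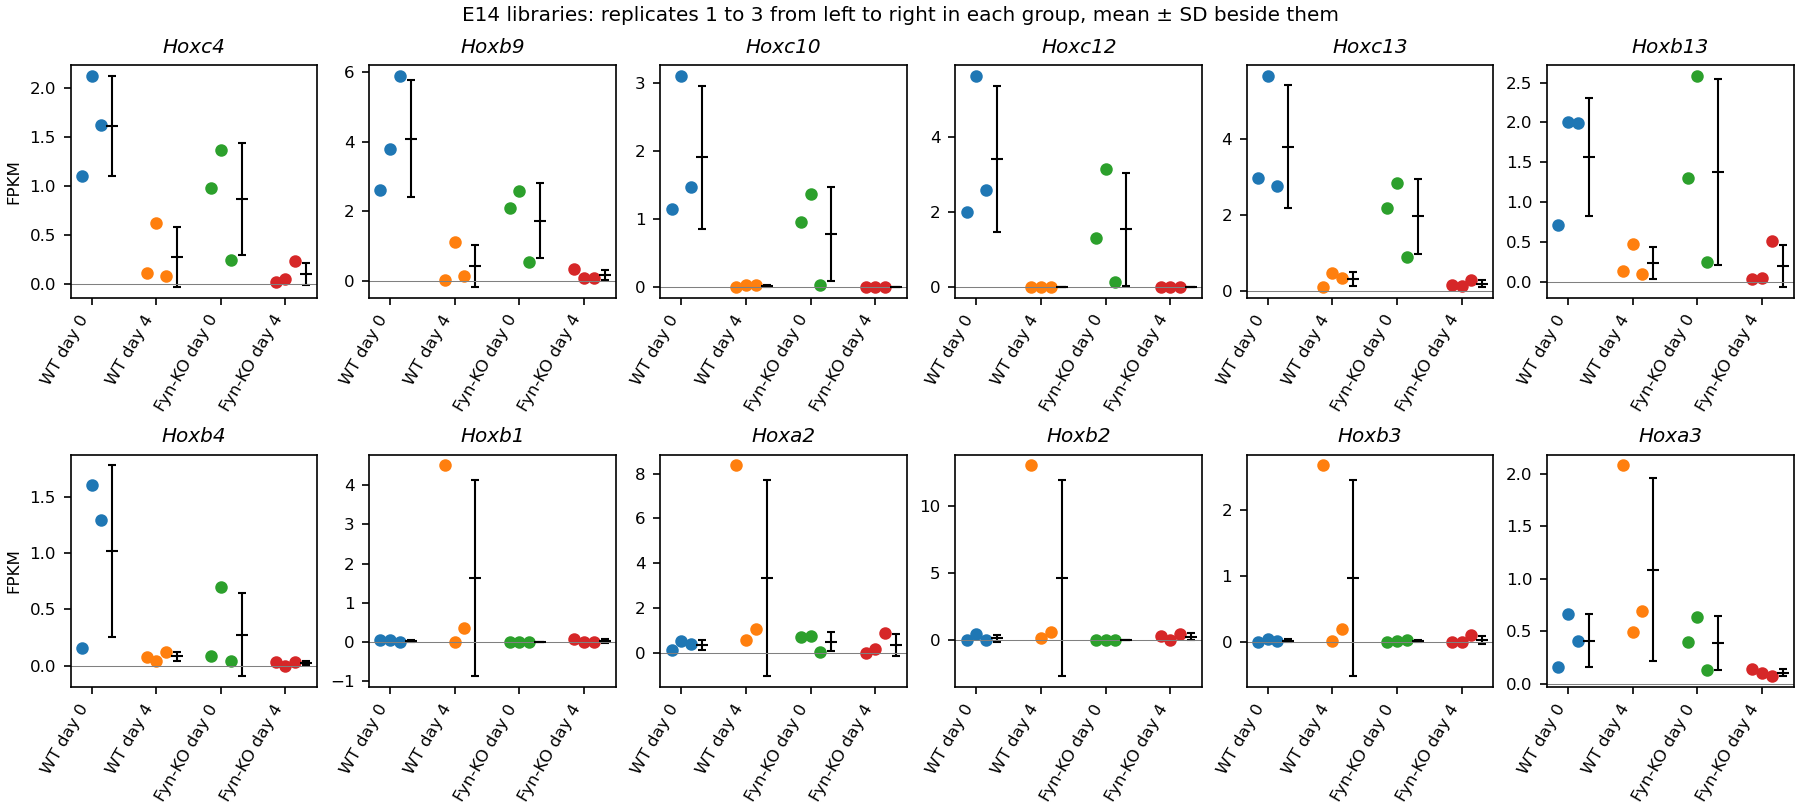
FPKM of 12 Hox members in each of the 12 E14 libraries (points, replicates 1 to 3 from left to right) with the mean ± SD of each group (n = 3). The upper row holds *Hoxc4* and 5 posterior genes that are highest at day 0, and in the lower row *Hoxb1*, *Hoxa2*, *Hoxb2*, *Hoxb3* and *Hoxa3* are highest in WT day 4 replicate 1 and *Hoxb4* at WT day 0.

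Of the 7 members that rose in both R1 cultures, 5 were above 2 FPKM in 1 of the 3 WT day 4 libraries. *Hoxb2* was at 13, 0.164 and 0.636 FPKM in replicates 1 to 3, *Hoxa2* at 8.38, 0.57 and 1.05 and *Hoxb1* at 4.52, 0 and 0.370. At WT day 0 *Hoxb2* was at 0 to 0.441 FPKM. *Hoxb3* was at 2.67, 0.0147 and 0.203 FPKM and *Hoxa3* at 2.08, 0.490 and 0.691 at WT day 4. *Hoxa4* was at 0.562, 0 and 0.153 FPKM, and *Hoxb4* at 0.0809, 0.0389 and 0.124, below its WT day 0 values of 0.160, 1.61 and 1.29. The same library had *Meis1* at 12.3 FPKM against 0.591 and 1.75 and *Crabp1*, a retinoic acid binding protein, at 502 against 15.8 and 32. These 5 members did not pass the filter, so their level in WT day 4 rests on 1 library and has no test. Without that library the highest WT day 4 value among the 5 was 1.05 FPKM (*Hoxa2*).

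Between days 0 and 4 of *Fyn*-KO, 2 of the 7 members fell and 0 rose, against 7.56% of all genes lower and 11.8% higher. All 7 log2 fold changes were below 0, with an unadjusted p below 0.05 for 7 (limma). Of all 12257 genes, 1785 were lower and 2478 higher at that unadjusted level. *Hoxc13* was at 2.18, 2.85 and 0.897 FPKM at day 0 and 0.149, 0.131 and 0.296 at day 4 (-1.26 ± 0.30, adjusted p = 0.0134, limma). *Fyn*-KO day 0 replicate 3 was low in the tested members, with *Hoxb9* at 0.538 FPKM against 2.1 and 2.57 and *Hoxc12* at 0.152 against 1.31 and 3.16, and *Cdx1* was at 0.745 there against 76.1 and 64.1. Without that library 7 of 7 fell, and without replicate 1 or replicate 2 of the same group 0 fell. Without any one of the *Fyn*-KO day 4 libraries 1 fell. With a replicate block *Hoxc12* was also called (adjusted p = 0.0447), which gave 3 members.

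Knockout and WT did not differ in a called member. At day 4, 0 of 7 passed, where 0.0734% of all genes were called in either direction. The unadjusted p was below 0.05 for 0 members (limma), and for 526 genes higher and 957 lower of 12257. *Hoxc10* and *Hoxc12* were listed at 0 in the 3 *Fyn*-KO libraries, and *Hoxb9*, *Hoxc4*, *Hoxc13* and *Hoxb13* had log2 fold changes of -0.22, -0.18, -0.13 and -0.05. At day 0, 0 of 7 passed, where 0.171% of all genes were called. An unadjusted p below 0.05 (limma) was reached by 4 members, all lower, and by 1068 genes lower and 717 higher of 12257. Log2 fold changes ranged from -0.93 (*Hoxb9*, groups not overlapping, adjusted p = 0.281, limma) to -0.19 (*Hoxb13*) among 6 members. The difference between *Fyn*-KO and WT in the change from day 0 to day 4 was called for 0 of 7 members and for 0% of all genes. For that difference an unadjusted p below 0.05 (limma) was reached by 0 members, and by 290 genes above 0 and 247 below 0. *Hoxb13*, *Hoxc4*, *Hoxc13* and *Hoxb9* had values of 0.14, 0.34, 0.57 and 0.71 on the log2 scale. These misses do not show that the lines act alike at 3 libraries a group.

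The cofactors that Hox proteins bind with rose with the anterior members. Of the 9 TALE genes 8 rose and 1 (*Pknox1*) fell in SFEB culture, and the same split was seen in adherent culture, against 31.7% and 34.8% of all genes higher, with median log2 fold changes of 2.33 and 2.52. *Meis1* was at 1.05, 1.69 and 2.49 FPKM (lowest, median and highest) in the early SFEB samples and at 11.2, 33.3 and 50.3 in the late samples (3.40 ± 0.34, adjusted p = 2.43e-06, limma). *Meis2* rose by 3.64 ± 0.30. At WT day 4 of E14 4 of 8 TALE genes tested rose, against 15.5% of all genes, among them *Pbx2*, *Pbx3* and *Meis3*.

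Retinoic acid genes went both ways. In SFEB culture 8 of 12 rose and 4 fell, where 31.7% of all genes rose and 24.8% fell, and in adherent culture 7 of 11 rose and 4 fell, where 34.8% and 24.4% did. Those that rose in both held *Crabp1* and *Crabp2*, which bind retinoic acid in the cell, and *Cyp26a1* and *Cyp26b1*, which degrade it. *Aldh1a2*, which makes it, fell in both (-0.83 ± 0.18 and -0.89 ± 0.12, adjusted p = 0.00161 and 9.32e-05, limma), as did the receptors *Rara* and *Rarg*. In SFEB culture the receptor *Rarb* rose from 0.197, 0.270 and 0.349 FPKM (lowest, median and highest) early to 0.544, 1.25 and 2.37 late.

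Of the posterior inducers, 4 of 4 tested rose in SFEB culture (*T*, *Fgf8*, *Gdf11* and *Nkx1-2*) and 3 of 3 in adherent culture, the same without *T*, where 31.7% and 34.8% of all genes rose. Of the 20 chromatin regulators of the clusters 8 rose and 8 fell in SFEB culture and 8 rose and 6 fell in adherent culture, not far from the shares of all genes (31.7% and 24.8%, and 34.8% and 24.4%). The Polycomb subunit *Eed* fell in both (-0.93 ± 0.13 and -1.05 ± 0.16, adjusted p = 4.23e-05 and 0.000256, limma), and *Cbx2*, which reads the Polycomb mark, rose in both (1.79 ± 0.15 and 1.57 ± 0.17).

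Of the 6 hindbrain regulators tested 2 rose in SFEB culture (*Irx3* and *Epha4*), near the 31.7% of all genes, and 4 of 6 rose in adherent culture, where 34.8% of all genes did, among them those and *Egr2*, which patterns rhombomeres 3 and 5. *Egr2* was at 0.626 to 2.04 FPKM in the late adherent samples and at 0.0651 to 0.374 in the early ones. Of the forebrain and midbrain factors 7 of 8 rose in SFEB and 4 of 6 in adherent culture, beside the same shares.

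Genes around the clusters went both ways. Of the 10 flanking genes tested 2 rose and 2 fell in SFEB culture and 1 rose and 2 fell in adherent culture, with median log2 fold changes of -0.12 and -0.07, and these shares were below those of all genes. *Evx1*, the homeobox gene at the posterior end of cluster A, rose by 0.89 ± 0.16 in SFEB culture (adjusted p = 0.000392, limma).

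Markers of other cell types moved as well, and their part in the Hox levels was not tested. Neuron genes rose in 3 of 4 tested in each culture, endoderm genes in 1 of 2 in SFEB and 4 of 4 in adherent culture, and formative epiblast genes in 2 of 4 in each, where 31.7% of all genes rose in SFEB and 34.8% in adherent culture. The neural crest factor *Foxd3* fell in both, and of the mesoderm genes *T* was tested and rose in SFEB, while 0 of 2 listed could be tested in adherent culture. At WT day 4 of E14, formative epiblast genes rose in 4 of 4, naive pluripotency genes fell in 5 of 5, neural progenitor genes rose in 2 of 3 and chromatin regulators fell in 6 of 20, where 15.5% of all genes rose and 10.3% fell.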

How the data were processed

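SFEB and adherent populations, single SFEB cells and E14 libraries were sequenced as mRNA. The deposited population values of the SFEB table are FPKM that the authors adjusted for batch with ComBat, and 1256 of its 297902 values below 0, among them 13 of Hox members, were set to 0. The deposited adherent and E14 values are FPKM without that step, and the deposited single-cell values are log10(RPKM + 1) after quantile normalization by the authors. The submitters' processing notes name TopHat2 2.0.8b and Cufflinks 2.1.1, with mm9 for R1 and mm10 for E14, while the study's methods name earlier versions of both tools and mm9, and which apply to which table is not settled here. These tables were normalized separately, so tests stay within a table.

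Members and gene lists were chosen with earlier results of these data known. The lists were TALE cofactors, Cdx and posterior inducers, retinoic acid pathway, Hox chromatin regulators, hindbrain regulators, forebrain and midbrain factors, Hox cluster noncoding and Evx genes, flanking genes, and markers of naive pluripotency, formative epiblast, neural progenitors, neurons, fibroblasts, mesoderm, endoderm and neural crest. Members with at least 1 FPKM in 3 samples of a population or E14 table were named there with their values, and single values of others were chosen after they were seen. Single values of a few genes that enter the counts, sums and medians are not reported here.

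Tests were run in limma 3.58.1 under R 4.3.3 with trend on log2(FPKM + 1), for genes at 1 FPKM or more in at least 3 of the samples fitted, with Benjamini-Hochberg adjustment over all genes tested and a threshold of 0.05. The E14 groups shared 1 model. SFEB late samples (from 100 h) were compared with early samples (up to 22 h) with the series as a term, and adherent samples likewise without it. The 0 h SFEB population of the first series was placed by its title. No pair of columns was identical, and 0 columns belonged to no sample. The steps were also run on simulated data, with changes planted only in genes of higher level and with a capped spread. That run does not cover members at low levels.

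Replicate numbers of the E14 groups were checked for pairing by the correlation of deviations from group means. It was 0.199, 0.220 and 0.224 between WT days, and 0.136, 0.258 and 0.240 between WT and *Fyn*-KO at day 4. It was 0.0628, 0.339 and -0.115 between lines at day 0, and 0.0239, 0.0899 and 0.00112 between *Fyn*-KO days. Samples of unlike number were not correlated, so these values cannot decide whether the numbers pair the samples. Alternatives were the pseudocount, the filter, quantile normalization, the windows, a slope over time, each series alone, a replicate block and leaving out each library. Figures were drawn with matplotlib 3.10.9. The authors' read counts were not used here, so depth gives no interval for FPKM values.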

Additional observations from a re-analysis of the deposited data

Results flagged for a closer look

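Of 60 groups of 4 to 7 samples checked, 5 held a sample whose gap to its nearest neighbour was a large part of the range (Dixon's test, which marks about 1 group in 20 by chance). *Hoxc6* in the 22 h sample of the first SFEB series was at 0.225 FPKM, against 1.38 to 2.61 in the other early samples. *Hoxa10* in the same library was at 0.249 FPKM, against 1.04 to 1.56. *Hoxb2* in the 103 h sample of that series was at 6.39 FPKM, against 22.7 to 36.3 in the other late samples. *Hoxb3* in the adherent 144 h sample was at 3.69 FPKM, against 7.99 to 9.13 in the other late samples. *Hoxc6* in the adherent 140.5 h sample was at 0.317 FPKM, against 0 to 0.05.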

How the results depend on the processing

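For *Fyn*-KO day 4 against day 0, 2 members were lower, and the count was 4 with a pseudocount of 0.1, 1 without the filter, 4 after quantile normalization, 3 with a replicate block and 0 to 7 on leaving out 1 library. For WT day 4 against day 0, 5 members were lower, which became 13 of 38 tested without the filter, 5 with the replicate block and 4 to 6 on leaving out 1 library. The replicate block called 0 members between lines and changed no other call. In SFEB culture 7 rose and 6 fell. The count that fell was 3 without the 0 h samples, the parallel series alone gave 3 higher and 0 lower among 9 tested, and leaving out 1 library gave 6 to 8 higher and 5 to 8 lower. In adherent culture 8 rose and 1 fell. The count that rose was 5 of 7 tested with late samples from 120 h and 5 to 8 on leaving out 1 library, and the count that fell was 3 without the filter, 0 without the 0 h sample, 2 for a slope over time and 0 to 1 on leaving out 1 library. The cause of these shifts was not tested beyond the number of members that pass each filter. Onset counts of 11 and 11 in the SFEB series became 7 and 7 at 2 FPKM, and the 147 detections above 0 in single cells became 91 above 0.5 RPKM.

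Signs turned for members that had no call. In SFEB culture *Hoxa7* was at 0.16 with late samples from 120 h, 0.17 by slope and -0.22 to 0.062 on leaving out 1 library, and *Hoxa5* at 0.10, 0.23, 0.036 in the parallel series alone and -0.32 to 0.069.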
